A study of Drosophila melanogaster with 2 samples.

Results

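The genes described here are part of the core of the EGF receptor and Raf pathway of the fruit fly *Drosophila melanogaster*. They are 10 of the 13945 protein-coding genes annotated on the 6 chromosome arms used: *spi*, *rho*, *Egfr*, *aos*, *drk*, *Sos*, *Raf*, *rl*, *pnt* and *aop*. They were chosen by name, as a list of known pathway genes, and all 10 were found in the annotation. The list leaves out *Ras85D*, the Ras gene itself, and *Dsor1*, the kinase gene between *Raf* and *rl*, which were looked up separately. The choice was made with earlier results of these data known, so the counts below are not those of an independent list. The question was where a tagged DNA-binding protein sits at these genes. The protein is that of CG31388, a zinc finger gene. It was carried as a fusion with green fluorescent protein (GFP) by a stable transgenic line, and chromatin bound to it was recovered from 0 to 16 h embryos of both sexes with an anti-GFP antibody and sequenced (ChIP-seq). The 2 libraries, biological replicates 2 and 4, form 1 group, with no untagged or treated group among them, and whole embryos mix all cell types, so fewer bound cells and weaker binding per cell cannot be told apart.

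In this pathway a secreted ligand binds a receptor tyrosine kinase at the cell surface, an adaptor and an exchange factor load the small GTPase Ras, and Ras starts a kinase cascade from Raf to the MAP kinase ERK. ERK enters the nucleus and changes the activity of ETS transcription factors, one of which activates and another of which represses the same targets. In the fly embryo the pathway patterns the ventral ectoderm, the midline and the tracheal system, and the secreted inhibitor Argos limits its range.

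The authors deposited a list of 28750 candidate regions called on both libraries together, which they label as peaks and background, and a list of 1872 reproducible peaks. Every peak is also a candidate, and the peaks are the candidates of highest signal, where signal is the enrichment value the authors give each region, on a scale that is not stated. Signal ran from 53.8 to 771 in the peaks, and the highest signal of the other candidates was also 53.8. Each replicate has a list of its own of 30000 regions, and a rank of 1 is the strongest region of a list. A region was placed by its summit, the base of highest signal. It was counted at a promoter within 500 bp of a transcription start site (TSS) of the gene, in the gene body, or within 5 kb outside it. Read depth is unknown, no value has a replicate error, and no test was made, because there is only 1 group.

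Reproducible peaks lay at 6 of the 10 genes: *spi*, *aos*, *drk*, *Raf*, *pnt* and *aop*. Each of the 6 had a peak in the gene body, where 5.77% of all protein-coding genes had one. The same 6 made up the genes with a peak in the body or within 5 kb, against 27.8% of all genes. At the promoter 2 of the 10 had a peak, *spi* and *aos*, against 10.1% of all genes. A candidate region was much more common: 9 of the 10 genes had one at the promoter, all but *Egfr*, against 46.5% of all genes, and all 10 had one in the body or within 5 kb, against 91.6%. The 10 genes together had 18 peaks and 121 other candidates. The median signal of the 18 peaks was 83.8, against 77.9 over all 1872 peaks, and 10 of the 18 lay above the latter.

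**Figure D1:**
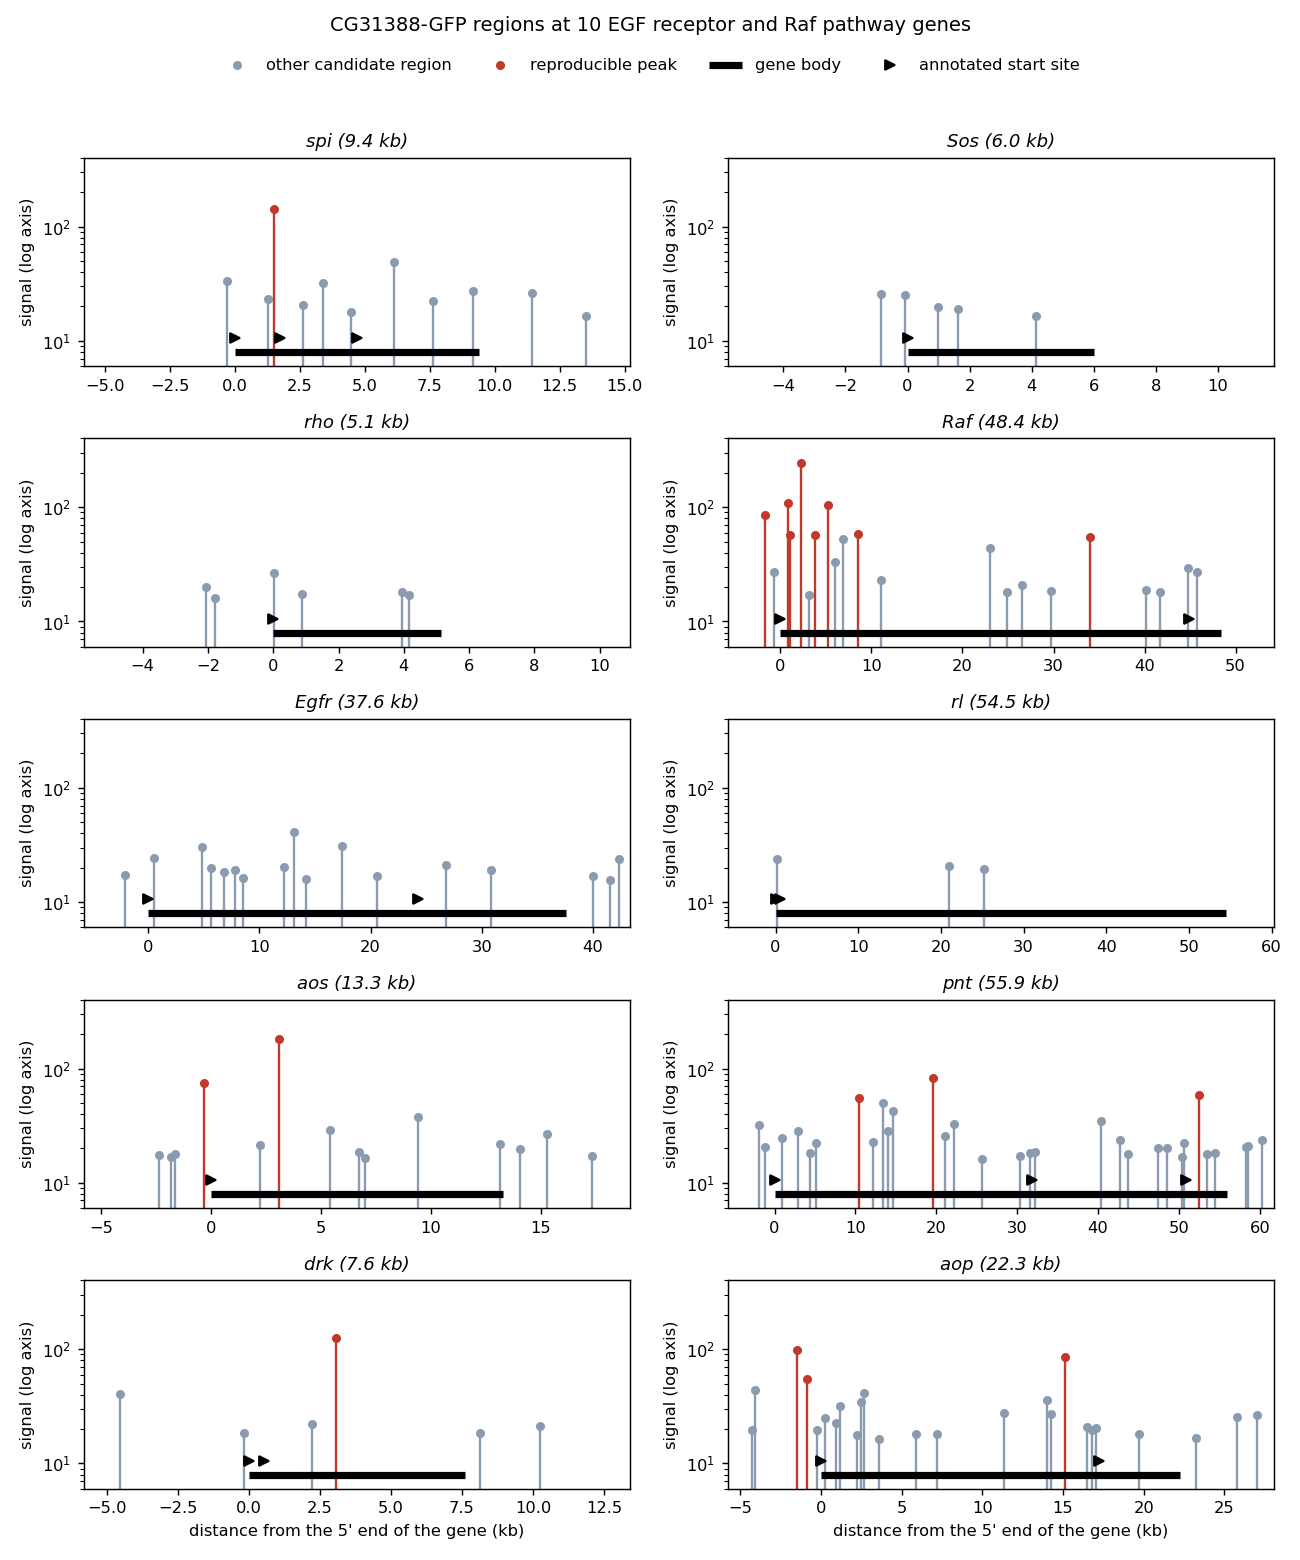
Signal of every candidate region (log axis, no unit given by the authors) against its distance in kb from the 5' end of each gene, read in the direction of transcription, with 1 panel per gene. Red marks the 18 reproducible peaks, grey-blue the other candidates, the black bar the gene body and arrowheads the annotated start sites. *Raf* carries 8 peaks, most of them near its 5' end, while *rho*, *Egfr*, *Sos* and *rl* carry none.

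The bases around the summits show what kind of DNA lay under the strongest peak of each of 5 genes, with the second peaks of *aos* and *aop* and the *Raf* peak in the 5′ UTR for contrast. Each line gives the 101 bp centred on a summit, on the forward strand of dm6, with the summit at base 51. Capitals mark a match, on either strand, to one of the 7 words searched, which were TATCGATA (the DNA replication-related element), its core CGATA, GGTCACACT (the core of a fly promoter motif), GAGAG (bound by GAGA factor), CAGCTG (an E-box), CCGGAAG (an ETS core) and TATAAA (the TATA box).
*spi* promoter, 2L:19575765-19575865: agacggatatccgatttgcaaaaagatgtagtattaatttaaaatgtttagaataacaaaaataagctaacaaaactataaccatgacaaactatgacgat
*aos* intron, 3L:16480509-16480609: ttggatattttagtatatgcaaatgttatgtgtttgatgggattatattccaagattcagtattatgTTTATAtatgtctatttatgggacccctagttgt
*aos* promoter, 3L:16483920-16484020: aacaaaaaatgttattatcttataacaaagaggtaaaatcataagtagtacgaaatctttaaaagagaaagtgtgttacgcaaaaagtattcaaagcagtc
*Raf* 5′ UTR, X:2296224-2296324: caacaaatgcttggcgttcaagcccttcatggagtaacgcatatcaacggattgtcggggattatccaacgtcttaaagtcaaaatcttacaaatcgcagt
*Raf* intron, X:2297647-2297747: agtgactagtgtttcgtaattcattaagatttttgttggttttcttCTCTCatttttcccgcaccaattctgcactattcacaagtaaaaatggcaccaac
*pnt* intron, 3R:23326499-23326599: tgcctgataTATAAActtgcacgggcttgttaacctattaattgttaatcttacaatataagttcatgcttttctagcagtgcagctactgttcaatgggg
*aop* upstream, 2L:2180191-2180291: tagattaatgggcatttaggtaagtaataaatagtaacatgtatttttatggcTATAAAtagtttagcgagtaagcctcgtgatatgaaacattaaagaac
*aop* intron, 2L:2163585-2163685: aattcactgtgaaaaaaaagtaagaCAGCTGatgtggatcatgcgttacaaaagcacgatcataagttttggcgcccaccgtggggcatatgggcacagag

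The GC content of these windows differed from gene to gene. It was 26.7% at the *spi* promoter, 28.7% and 26.7% at the 2 *aos* peaks and 28.7% at the strongest *aop* peak, but 35.6% at the strongest *Raf* peak, 42.6% in the *Raf* 5′ UTR and 45.5% at the *aop* intron. Over the 18 peaks the median was 36.1%, with a range from 26.7% to 46.5%. It was 31.7% over all 1872 peaks and 40.6% over the other candidates. TATAAA was the word found most often, at 6 of the 18 peaks (33.3%, against 24.1% of all peaks and 13.3% of the other candidates). Those 6 lay at *aos*, *drk*, *Raf*, *aop* and, with 2, *pnt*. GAGAG was at 3, all of them at *Raf* (16.7%, against 9.99% of all peaks and 11.5% of the other candidates). CAGCTG was at 1, the *aop* intron (5.56%, against 2.83% and 4.48%). TATCGATA, CGATA, GGTCACACT and CCGGAAG were at none of the 18. Of all peaks, 1.23%, 13.4%, 0.427% and 0.534% held them, and of the other candidates 0.677%, 12.6%, 0.361% and 0.525%. CGATA also lies within TATCGATA. A match says only that the letters are there.

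The ligand gene came with 1 strong promoter peak. *spi* encodes Spitz, the main activating ligand of the receptor in the embryo, and lies at 2L:19567900-19577315 on the reverse strand, 9.42 kb long, with 3 annotated start sites. Its peak, at 2L:19575617-19576012, had a signal of 143 and was 228 bp upstream of the middle start site, inside an intron of the transcripts that begin at the outermost one. It ranked 239 in the pooled list, 257 in replicate 2 and 228 in replicate 4, with deposited signals of 52.8 and 93.1 in the 2 replicate lists. The ranks in the replicates were thus nearly equal. The outermost start site had a candidate of signal 33.6, 305 bp away, at rank 4405, and the innermost one a candidate of 17.7, 249 bp away, at rank 22038. The second strongest region at *spi*, near the micro-RNA gene *mir-2b-2* that lies in the same locus, had a signal of 49.4, just below the level of the peaks. It stood at rank 1870 in replicate 4 and at 9100 in replicate 2. *spi* held 0.850 candidates per kb of gene body, a density that 0.769% of the 2471 genes of 5 to 20 kb reached. That count includes the peak and a candidate that overlaps it, at 2L:19575818-19576213.

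Among the 3621 other genes with a promoter candidate found in both replicates, the genes nearest to *spi* in rank over the 2 libraries were *pes*, CG1275 and *Elp5*. The distance was taken on log2 ranks. The promoter region of *pes*, at 2L:7994122-7994517, ranked 259 in replicate 2 and 229 in replicate 4. CG1275 and *Elp5* share 1 region, at 3L:2257280-2257675, with ranks of 258 and 224. Their signals in the pooled list were 146 and 145.

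The gene for ligand processing had no peak. *rho* encodes Rhomboid, the membrane protease that cuts Spitz free, and lies at 3L:1463811-1468944, inside the gene *Ptp61F*. It had 6 candidates, and the strongest was at its own start site, with the summit 26 bp away, at 3L:1463639-1464034. That region had a signal of 26.7 and ranked 7571 in the pooled list, 19348 in replicate 2 and 6892 in replicate 4, so that the replicates placed it far apart. Candidates were as dense along *rho* as at few genes of its size. It held 0.779 per kb, which 1.78% of the genes of 5 to 20 kb reached. That value rests on 4 candidates in a body of 5.13 kb, near the lower edge of the class. Those at 3L:1467557-1467952 and 3L:1467771-1468166 overlap, and the latter lay in no region of either replicate. Only the candidate at the start site lay in a region of replicate 2.

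The receptor gene had neither a peak nor a promoter candidate. *Egfr* spans 37.6 kb at 2R:21522420-21559977, with 2 annotated start sites and several small genes nested within it. None of its 17 candidates had its summit within 500 bp of an *Egfr* start site. The strongest, at 2R:21535319-21535714 in an intron, had a signal of 40.8 and ranked 3015 in the pooled list, 6182 in replicate 2 and 2489 in replicate 4. It was 11126 bp from the nearest start site of *Egfr* itself. The median signal of the 17 was 19.2, near the 20.5 of all candidates that are not peaks.

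The inhibitor gene had 2 peaks, and one of them was the second strongest of the 18. *aos* encodes Argos, which is secreted and binds Spitz, and lies at 3L:16470386-16483650 on the reverse strand, within a larger gene on the other strand, CG33158. The stronger peak, at 3L:16480505-16480631, lay in an intron 3091 bp from the only start site, with a signal of 182. It ranked 135 in the pooled list, 109 in replicate 2 and 166 in replicate 4, and its signals in the replicate lists were 76.4 and 107. It was 127 bp wide, against a median of 396 bp over all peaks, and 4.17% of the peaks were under 200 bp. The other peak, at 3L:16483772-16484167, was 320 bp upstream of the start site, with a signal of 74.4. It ranked 1032 in the pooled list, 1245 in replicate 2 and 654 in replicate 4. At *aos* the promoter was therefore the weaker of the 2 sites in each replicate.

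The adaptor gene had 1 peak and the exchange factor gene had none. *drk* encodes the fly Grb2, which links the receptor to Sos, and lies at 2R:13495222-13502841 on the reverse strand. Its peak, at 2R:13499557-13499952, was in an intron with a signal of 126. It ranked 332 in the pooled list, 332 in replicate 2 and 384 in replicate 4. The nearest start site was that of *mars*, a gene of the other strand that overlaps *drk*, at 866 bp, while the nearest *drk* start site was 2538 bp away. *Sos*, at 2L:13813816-13819824, encodes the exchange factor for Ras. It had 5 candidates. The one at its promoter, 68 bp from the start site, had a signal of 25.1 and ranked 8915 in the pooled list, 24080 in replicate 2 and 10424 in replicate 4.

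The 2 listed kinase genes of the cascade below Ras differed in their number of peaks. *Raf* encodes the kinase that acts next to Ras and carried the strongest of the 18 peaks and 8 of them in all. *rl* encodes the fly ERK, and in its 54.5 kb, at 2R:1071462-1125927, there were 3 candidates and no peak. The candidate at the *rl* promoter, 212 bp from a start site, had a signal of 23.9 and ranked 10132 in the pooled list, 15708 in replicate 2 and 18859 in replicate 4. The *rl* gene body held 0.0551 candidates per kb, and 82.4% of the 307 genes over 50 kb had at least that density.

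The *Raf* gene spans 48.4 kb on the X chromosome, at X:2295466-2343870. Most of that length comes from a long transcript that starts at its left end. The short transcript starts at position 2340298, and the coding sequence, 2.54 kb from first to last base, lies to the right of that start. From 1680 bp before to 8563 bp after the long transcript's start there were 7 peaks. The first, at X:2293588-2293983 with a signal of 85.0, was at the promoter of the neighbouring gene CG2865, 375 bp from its start site. Next came a pair of overlapping peaks, at X:2296076-2296471 in the 5′ UTR (signal 108) and at X:2296275-2296670 in the intron (57.2). These share 197 bp and fall on a single region of replicate 2, at rank 589, so they are not independent there, while replicate 4 ranked them 479 and 1902.

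The strongest peak of the 18 followed, at X:2297585-2297781, 2231 bp into the long transcript. It had a signal of 243 and ranked 70 in the pooled list, 71 in replicate 2 and 73 in replicate 4. Its signals in the replicate lists were 88.6 and 153. It was the peak with the closest agreement in rank, and it was 197 bp wide. Then came peaks of signal 57.4 at X:2299033-2299428, of 104 at X:2300501-2300896 and of 58.1 at X:2303831-2304226, all in the same intron. The second of these ranked 584 in replicate 2 and 653 in replicate 4. The outer pair ranked lower, at 2854 and 2391 in replicate 2 and at 1784 and 1682 in replicate 4. Between them a candidate at X:2302157-2302552 had a signal of 53.2, just under the weakest peak.

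Peaks were packed more closely here than almost anywhere else. Of the 1872 stretches of 10 kb that begin at a peak summit, 2 held 6 peaks, which was the highest number. Both of these overlapping stretches began at *Raf*, one of them at the peak of the CG2865 promoter. Each counts the overlapping pair as 2 peaks. Stretches with 5 peaks began at 3L:11415475 and X:7697054, as well as at *Raf*. Only 29.3% of the stretches held more than the peak they begin at. In the body of *Raf* there were 7 peaks, or 0.145 per kb. It was the only one of the 706 genes of 20 to 50 kb with that many, and 1 other protein-coding gene of any length, CG1677, had more, with 11 in 125 kb. The count of 7 also takes the overlapping pair as 2 peaks. The next highest number, 6, was reached by CHES-1-like (27048 bp long), *ush* (64341 bp) and *kirre* (394149 bp).

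The start of the short *Raf* transcript looked different. Its promoter had a candidate 27 bp away, at X:2340073-2340468, with a signal of 29.6. It ranked 5843 in the pooled list and 5566 in replicate 4 and lay in no region of replicate 2. The last *Raf* peak, at X:2329318-2329713, was in the intron between the 2 starts, 10782 bp from the short transcript's start and 643 bp from that of lncRNA:CR33218, a long non-coding RNA. Its signal was 54.4, and the replicates placed it apart, at rank 777 in replicate 2 and 8497 in replicate 4.

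**Figure D2:**
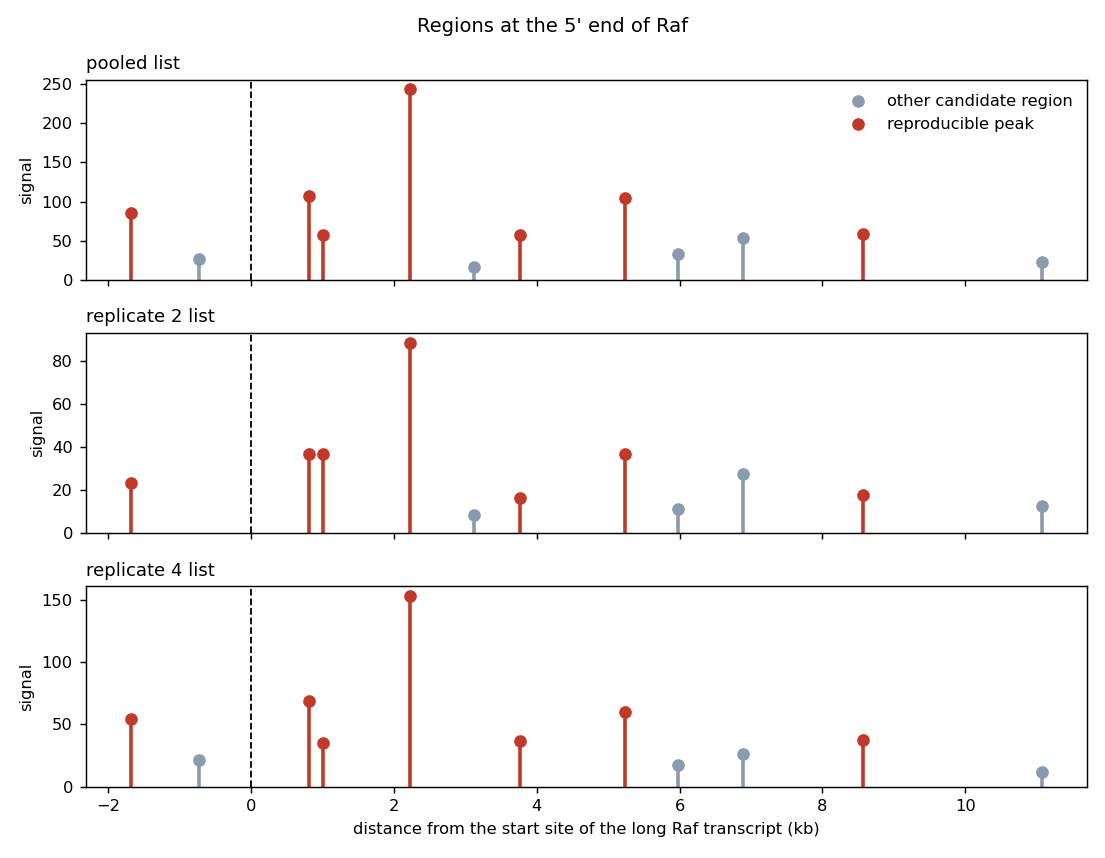
Signal of the regions at the 5' end of *Raf* in the pooled list (top) and of the regions that hold their summits in the replicate 2 (middle) and replicate 4 (bottom) lists, against the distance in kb from the start site of the long transcript (dashed line). The 3 signal axes have different ranges because each list has its own scale. The peak of signal 243 stands highest in all 3 lists, and the overlapping pair takes the same value in replicate 2 because both fall on 1 region.

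Both nuclear ETS factor genes had 3 peaks, none of them at their own promoters. *pnt* encodes Pointed, which activates the targets of the pathway, and spans 55.9 kb at 3R:23290231-23346167 on the reverse strand, with 3 annotated start sites. Its strongest peak, at 3R:23326351-23326746, had a signal of 82.6 and lay in an intron 12234 bp from the nearest *pnt* start site. The replicates ranked it 383 (replicate 2) and 1984 (replicate 4). The peak at 3R:23293499-23293894 (signal 58.7) was 1541 bp from the innermost start site and ranked 1729 and 2018. The peak at 3R:23335511-23335906 (signal 55.3) ranked 2330 and 1549. The nearest start site to the first and last of these belonged to lncRNA:CR46090, which lies in the same locus. A further intronic candidate, at 3R:23332612-23333007, had a signal of 50.3, with ranks of 1961 and 1952, a closer pair than those of any *pnt* peak. In all *pnt* had 31 candidates, the most of the 10 genes, and 6.84% of the genes over 50 kb had as many peaks in the body.

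*aop* encodes Yan, the ETS repressor that ERK inactivates, and spans 22.3 kb at 2L:2156484-2178754 on the reverse strand. Of its 3 peaks, 2 lay upstream of the gene between annotated genes. The stronger of these, at 2L:2180043-2180438, had a signal of 98.6 and was 1487 bp from the outer start site, with ranks of 424 in replicate 2 and 812 in replicate 4. The other, at 2L:2179435-2179830, had a signal of 54.6 and was 879 bp from it, with ranks of 674 and 6123. The third, at 2L:2163437-2163832 in an intron, had a signal of 85.4 and was 2108 bp from the inner start site, with ranks of 2019 and 586. So the upstream pair ranked higher in replicate 2 and the intronic peak in replicate 4. The *aop* gene body held 17 candidates, or 0.763 per kb, the highest density among the 706 genes of 20 to 50 kb. Several of the 17 overlap a neighbour and were counted separately. Those at 2L:2175876-2176271 and 2L:2176081-2176476, for example, fall on a single region of replicate 4, at rank 3068. The candidates at the 2 *aop* start sites had signals between 19.5 and 25.2.

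The 4 strongest peaks, those of signal 126 or more at *Raf*, *aos*, *spi* and *drk*, had similar ranks in the 2 replicates. All 18 peaks had their summits in a region of each replicate, as did 98.1% of all peaks, against 37 of the 121 other candidates at the 10 genes and 29.2% of all other candidates. Because the reproducible peaks were selected with these same replicate lists, this contrast is largely built in and says nothing separate about agreement. Of the rest of the 121, 24 were in replicate 2 alone, 49 in replicate 4 alone and 11 in neither. The larger rank divided by the smaller had a median of 1.56 over the 18 peaks and 1.66 over all peaks. It was above 5 at 3 of the 18: the *Raf* peak near lncRNA:CR33218 (10.9), the weaker upstream peak of *aop* and the strongest *pnt* peak. All 3 ranked higher in replicate 2. Over all peaks found in both replicates 9.42% were above 5. Within the 1872 strongest regions of each replicate, 9 of the 18 peaks were in both, against 66.1% of all peaks.

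**Figure D3:**
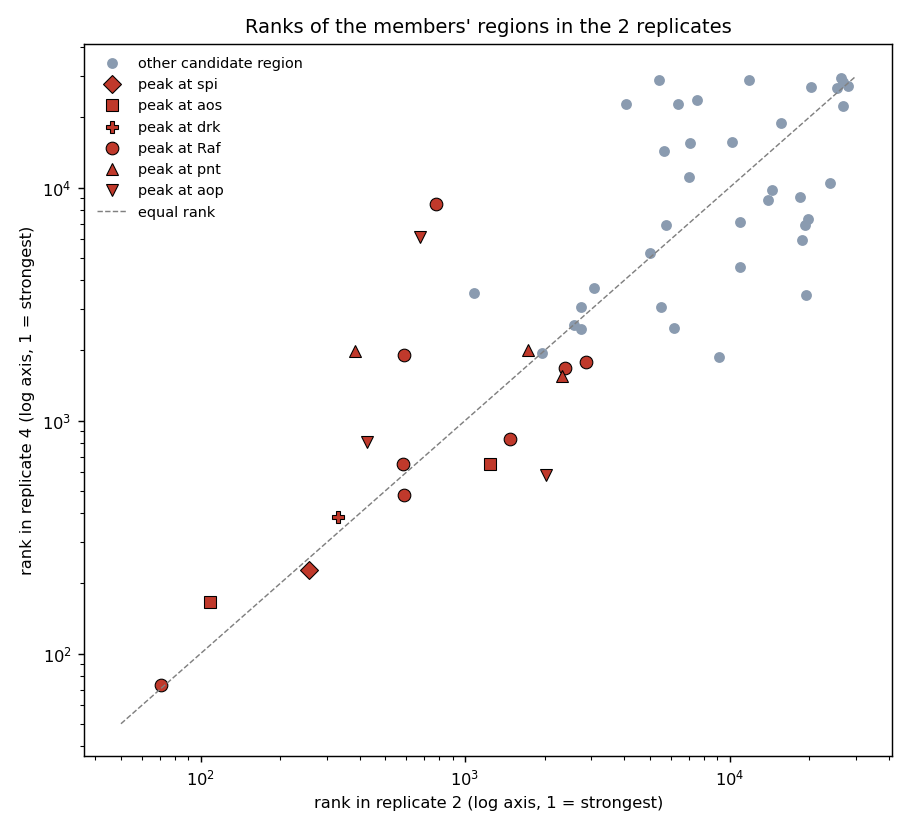
Rank in replicate 4 against rank in replicate 2 (both log axes, 1 is the strongest of 30000 regions) for the regions of the 10 genes whose summits lie in a region of both lists: 18 reproducible peaks in red, with a symbol for each gene, and 37 other candidates in grey-blue. The strongest peaks of *Raf*, *aos*, *spi* and *drk* sit near the dashed line of equal rank, and the points above it at upper left are the *Raf* and *aop* peaks of ranks 777 and 674 in replicate 2.

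Most of the 18 peaks were away from start sites: 12 were in introns, 3 at a promoter (those of *spi*, *aos* and CG2865), 2 between genes, 1 in a 5′ UTR and none in coding sequence. Over all peaks 30.8% were in introns and 55.9% at promoters. The counts cannot be set against each other directly, because the rule takes whole gene bodies, and long ones give introns more room. The 121 other candidates were 57.0% in introns and 25.6% at promoters, and 8.26% in coding sequence.

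Gene length bears on the count of genes with a peak in the body, since the 10 genes are longer than most and none was under 5 kb, as 10461 of all 13945 were. Of the 2471 genes of 5 to 20 kb, 12.9% had a peak in the body, and 3 of the 5 members of that class had one (*spi*, *aos* and *drk*, not *rho* and *Sos*). In the class of 20 to 50 kb the share was 25.1%, with 2 of 3 members (*Raf* and *aop*, not *Egfr*). Over 50 kb it was 33.9%, with 1 of 2 (*pnt*, not *rl*). With body and 5 kb outside together, the shares were 35.8%, 38.7% and 44.0%, and the members with a peak were the same 6. Together the bodies of the 10 genes, 260 kb, held 0.0538 peaks and 0.392 candidates per kb. Without *Raf* the value was 0.0331 peaks per kb. Over all genes of a class there were 0.0163, 0.0122 and 0.00673 peaks per kb, in order of length. For candidates the values were 0.258, 0.238 and 0.171 per kb, in the same order.

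**Figure D4:**
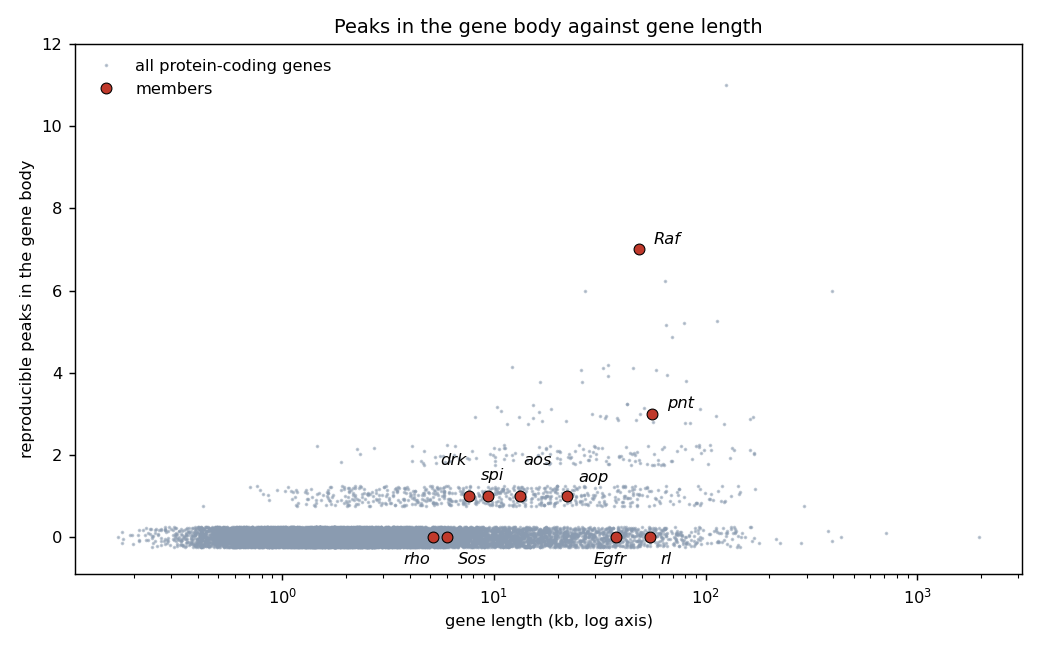
Number of reproducible peaks in the gene body against gene length in kb (log axis) for all 13945 protein-coding genes (small points, spread a little vertically so that they can be seen) and the 10 pathway genes (red). *Raf* has 7, *pnt* 3, *spi*, *aos*, *drk* and *aop* 1 each, and *rho*, *Sos*, *Egfr* and *rl* 0.

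Beyond the 10 listed genes, 30 further genes of the pathway were looked up. They had a peak at the promoter in 4 cases (13.3%, near the 10.1% of all protein-coding genes), in the body in 6 (20%, against 5.77%) and in the body or within 5 kb in 15 (50%, against 27.8%), with 27 peaks in all. These shares are not matched for gene length. The 6 genes with a body peak ran from 6.01 kb (*edl*) to 84.4 kb (*ed*). Over all genes the body share was 1.96% under 5 kb, 12.9% at 5 to 20 kb, 25.1% at 20 to 50 kb and 33.9% over 50 kb. The 4 promoters were those of *Shc*, *Krn*, *edl* and *cic*. The strongest of the 27 peaks was at *Shc*, an adaptor gene, 100 bp from its start site at 3L:9426758-9426982. It had a signal of 308 and ranked 35 in the pooled list, 21 in replicate 2 and 48 in replicate 4, above every peak of the 10 core genes. *Krn* encodes a Spitz-like ligand, and its promoter peak (signal 61.0, 67 bp from a start site of *Krn* and from one of *Ndfip*) ranked 905 in replicate 4 and 9941 in replicate 2.

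*edl* and *cic*, which act on the transcription step, were among the 4. *edl* encodes a small protein that binds Yan and Pointed. It had a promoter peak of signal 83.7 and 2 intronic peaks, the stronger of signal 185 at 2R:18671650-18671783, 1802 bp from its start site and 134 bp wide. As at *aos*, the narrow intronic peak was the stronger one. *cic* encodes Capicua, a repressor of pathway targets that ERK relieves, and had 3 peaks of signal 63.8 to 83.0. The *cic* peak of signal 77.9 ranked 8513 in replicate 2 and 451 in replicate 4.

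The rest of the wider list had no peak at a promoter of its own. *S*, which encodes the Star protein that carries Spitz to where it is cut, had 2 intronic peaks of signal 107 and 137. The replicates placed the weaker peak far apart, at rank 7014 in replicate 2 and 220 in replicate 4. *vn*, a ligand gene, had an intronic one of 81.4, which lay in no region of replicate 2. The adaptor gene *dos* had one of 74.2 in its 5′ UTR. *ed*, a cell adhesion gene, had 3 in introns and 1 outside, of 55.2 to 74.8. For *RasGAP1*, whose product switches Ras off, the stronger of 2 peaks lay 676 bp from the start site with a signal of 195. The peaks within 5 kb of *ru*, *Nf1*, *ksr*, *cnk*, *sty* and *Sur-8* were outside those genes, and the nearest start site was that of another gene at *Nf1* (CG43116), *ksr* (CG31550), *cnk* (*l(2)k01209*), *sty* (lncRNA:CR45737) and *Sur-8* (*sds22*). Those near *Nf1*, *ksr* and *Sur-8*, and the stronger one near *cnk*, were promoter peaks of these other genes. They lay 350, 155, 49 and 285 bp from the start site, in that order. No peak lay at the other 15, which include *Ras85D*, the Ras gene itself, *Dsor1*, the kinase gene between *Raf* and *rl*, and the feedback genes *kek1* and *Mkp3*.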

How the data were processed

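The authors deposited narrowPeak lists on dm6 with a signal value per region, an enrichment whose scale is not given in the sources used here, nor are the aligner, the peak caller and the threshold of the irreproducible discovery rate (IDR). Per the deposited read-me files, a replicate's list comes from its own alignments and a control, the pooled list from both replicates and that control, and IDR on these lists gave the reproducible peaks. Signal was used only to rank and describe regions within a list. Depth is unknown. The labels name different protocol documents for the 2 replicates. Whether this marks a batch difference is not known, and any such difference could not be told apart from replicate number.

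Genes came from Ensembl release 115 on dm6, without transposable elements, and sequences from the RefSeq genome of the same assembly. A summit was matched to the replicate region that holds it, or to the one of nearest summit where several do. Classes were assigned with promoters first, then exons by kind, then introns. Counting was tested on simulated regions. Python 3.11.15, pandas 2.3.3 and NumPy 2.4.6 were used. The genes named are the 10 core genes, those of the wider list with a peak, the gene nearest to each core peak and the 3 genes most like *spi* in rank. *Ras85D*, *Dsor1*, *kek1*, *Mkp3*, CG1677, CHES-1-like, *ush*, *kirre*, *Ptp61F*, CG33158 and other neighbours were named after their values were seen. The members, lists and words were chosen with earlier results of these data known. Alternatives were other promoter windows and flanks, the 936 strongest peaks, each replicate alone, any overlap in place of the summit and reciprocal overlap. The coding span and the count without *Raf* were added after seeing the data.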

Additional observations from a re-analysis of the deposited data

How the results depend on the processing

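The genes with a peak in the body, and those with one within 5 kb, were the same 6 with the 936 strongest peaks, with the 1872 strongest regions of either replicate alone and with any overlap of the peak in place of its summit. The share of all genes with a peak in the body was 3.21% with the 936 strongest peaks and 10.7% with any overlap, against 5.77% as reported. Within 5 kb the share was 16.2% with the 936 strongest peaks and 28.4% with any overlap, against 27.8% as reported. The count within 5 kb was also 6 with 2 or 10 kb outside the gene, while the share of all genes went from 18.8% to 39.3%. The count at promoters was 2 in replicate 4 alone (9.91% of all genes) and in replicate 2 alone (9.88%). It was 1 with the 936 strongest peaks (*spi*, against 5.51% of all genes), 1 with a window of 250 bp (7.86%) and 4 with one of 1000 bp (11.5%). From the first to the last coding base, in place of the annotated gene, 3 genes had a peak in the body (*drk*, *aos* and *pnt*), against 2.65% of all genes; the coding spans of *Raf*, *aop* and *spi* had 0. The 18 peaks were 10 among the 936 strongest and 10 without *Raf*. The 1872 strongest regions of replicate 2 alone placed 17 regions at the 10 genes, and those of replicate 4 alone placed 14. These regions are not all matches of the 18 peaks. Of the 18 themselves, 14 fell on the 1872 strongest regions of replicate 2 and 13 on those of replicate 4. With a reciprocal overlap of at least 50%, 16 of the 18 were found in both replicates. A candidate region was at the promoter of 8 genes with 250 bp (35.1% of all genes) and of 10 with 1000 bp (58.1%).

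No paired analysis was possible because there is 1 group. The dm3 lists were not run, since no dm3 annotation was used here. With depth unknown, the absence of a peak at *rho*, *Egfr*, *Sos* and *rl* says only that none was called.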
